A study of Cucumis sativus with 6 samples.

Results

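Phloem was compared between both ends of the path that feeds a young cucumber fruit: the pedicle, the short stem carrying it, and the fruit itself. The comparison takes 4 of the 6 libraries of the study, 2 from pedicle and 2 from fruit, over every gene of the table. All plants were of inbred line 9930, untreated as far as the labels say, and all organs were taken from young fruits 3 days after anthesis, the opening of the flower. The other 2 libraries, from the stalk, were used only to place that organ relative to these ends by its scores. Phloem was cut out of fixed sections with a laser, and its RNA was amplified before sequencing, so the libraries measure a dissected tissue and not single cells. In such bulk samples fewer cells of one type and less RNA per cell cannot be told apart.

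Phloem is the conducting tissue that moves sugars, amino acids, proteins and RNA from the leaves to growing organs. Sieve elements, which lose their nuclei as they mature, form the tubes, and the companion cells beside them supply their proteins. Cucumber loads its phloem mainly with sugars of the raffinose family, galactose-bearing relatives of sucrose. A fruit that has just set is a strong sink for sugars. The pedicle lies on the path of the sap toward the fruit, and the fruit unloads sap. Whether the sugars are altered on the way was not measured here. The genes below carry locus identifiers without product names. Their roles are therefore not given, and the labelled tissue could not be checked against phloem marker genes.

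Scores are in TPTM, read here as the amount of a gene per 10000000 of its library, and 15090 of the 15720 genes reached 10 TPTM in at least 2 of these 4 libraries and were tested. Every library summed to just under that total, from 9991842 to 9995581, so a score is a share and a gain of some genes lowers all others. The unevenness of the low scores gave 3.34 reads per TPTM for pedicle replicate 2 and 2.18 for fruit replicate 2. The depth of the other pedicle and fruit libraries could not be resolved in this way. Across genes, log2 scores correlated at 0.940 between the pedicle libraries and 0.956 between the fruit libraries. Between a pedicle and a fruit library they correlated at 0.834 to 0.846. The stalk libraries correlated at 0.926 to 0.941 with fruit, at 0.877 to 0.902 with pedicle and at 0.982 with each other. Of the 100 most abundant genes of a library, 86 were shared by both pedicle libraries, 82 by both fruit libraries and 64 to 68 by a pedicle and a fruit library.

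Pedicle and fruit phloem differed in 2294 genes, 15.2% of those tested, at a Benjamini-Hochberg adjusted p under 0.05 (limma on the 4 libraries). Of these genes 785 were higher in pedicle, 5.20% of those tested, and 1509 were higher in fruit, 10.0% of those tested. The median log2 difference was 1.89 in the first group and -1.98 in the second. At least 4-fold differences were called toward pedicle in 359 genes and toward fruit in 742, and at least 16-fold differences in 68 and 101. The libraries of the organs did not overlap in any of the 2294 genes, a pattern seen in 58.3% of all tested genes. The calls rest on 2 libraries a side: 279 genes passed without pedicle replicate 1, 403 without pedicle replicate 2, 738 after omitting fruit replicate 1 and again 738 after omitting fruit replicate 2. In every one of these 4 fits 59 genes were called toward pedicle and 108 toward fruit, with median log2 differences of 3.94 and -3.43. With the 2 stalk libraries added to the estimate of the spread, 3493 genes passed.

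**Figure D1:**
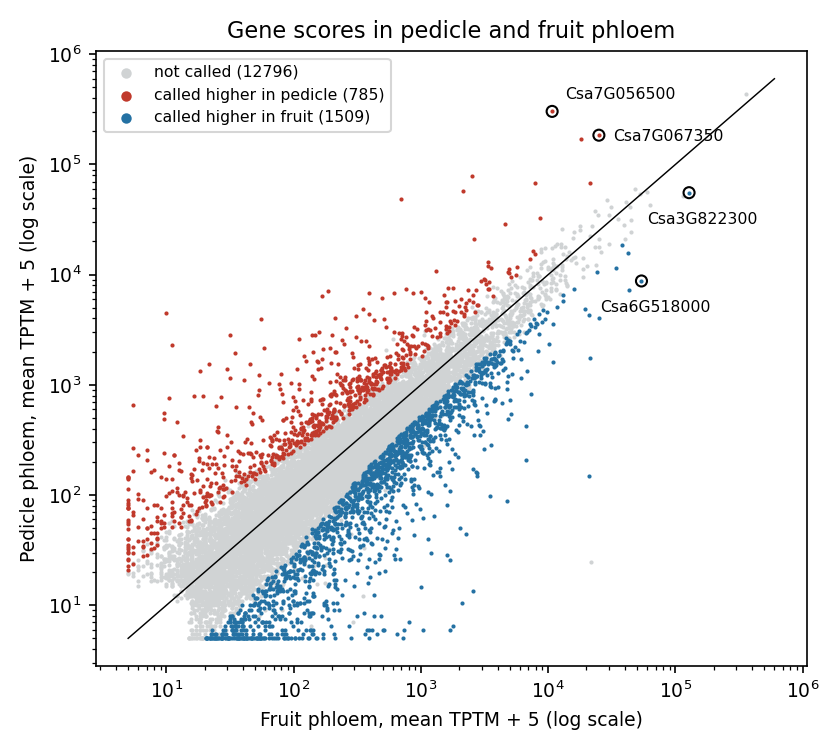
Mean score of each tested gene in fruit phloem (horizontal) and pedicle phloem (vertical), each plus 5 TPTM, on log scales, with the line of equal scores. The 785 genes called higher in pedicle lie above the line and the 1509 called higher in fruit below it, and the 4 ringed genes are the 2 called genes in each direction with the largest difference in mean score.

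How unequal the 2 directions were depended on the scaling and on single libraries. As deposited, the median log2 difference of all tested genes was -0.20, and 65.8% of the called genes were lower in pedicle. TMM factors, which centre the bulk of genes, moved that median by 0.16, and 53.5% of 2343 called genes were then lower in pedicle. Quantile normalisation moved it by 0.21 and left 51.0% of 2522 lower. Of the 1509 genes called higher in fruit, 1244 were also called with TMM factors, and all 785 called higher in pedicle were. No gene changed direction between these calls. The share of called genes lower in pedicle was 74.6% without pedicle replicate 1 and 76.7% without pedicle replicate 2, and 49.9% and 51.9% without fruit replicates 1 and 2.

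As a share of the library, the gain of pedicle phloem lay in fewer genes than that of fruit phloem. Differences of the organ means toward either side came to 26.0% of a library, equal by construction because scores are shares. On the pedicle side 44 genes held 50% of this sum, and on the fruit side it took 292. The first 10 genes made up 38.1% of the sum toward pedicle and 13.4% of that toward fruit. With TMM factors the numbers of genes for 50% were 66 and 232. With each of the 4 libraries left out in turn they ran from 44 to 51 and from 237 to 340. As deposited, called genes held 64% of the sum toward pedicle and 49.6% of that toward fruit. The rest of each sum lay in genes that were not called.

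The 44 genes behind the pedicle gain took 20.7% and 21.7% of expression in pedicle, 8.93% and 10.1% in the 2 libraries of stalk and 8.38% and 7.84% in those of fruit. As a sum, which a few genes dominate, stalk was close to fruit. Gene by gene it was nearer to midway: on the log2 scale its mean lay closer to fruit in 27 of the 44, at a median of 0.44 of the way from fruit to pedicle. Of the 44, 27 were called higher in pedicle, as were 5.20% of all tested genes. Over all 44, called or not, the size of the log2 difference ran from 0.26 to 6.48. The 292 genes behind the fruit gain took 14.3% and 13.1% of pedicle expression, 22.6% and 23.4% of stalk expression and 27.4% and 26.0% of fruit expression. Of these, 178 were called, and 10.0% of all tested genes were called higher in fruit. Both sets were picked by their difference in the pedicle and fruit libraries. The library shares and the numbers called therefore describe the sets and test nothing.

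**Figure D2:**
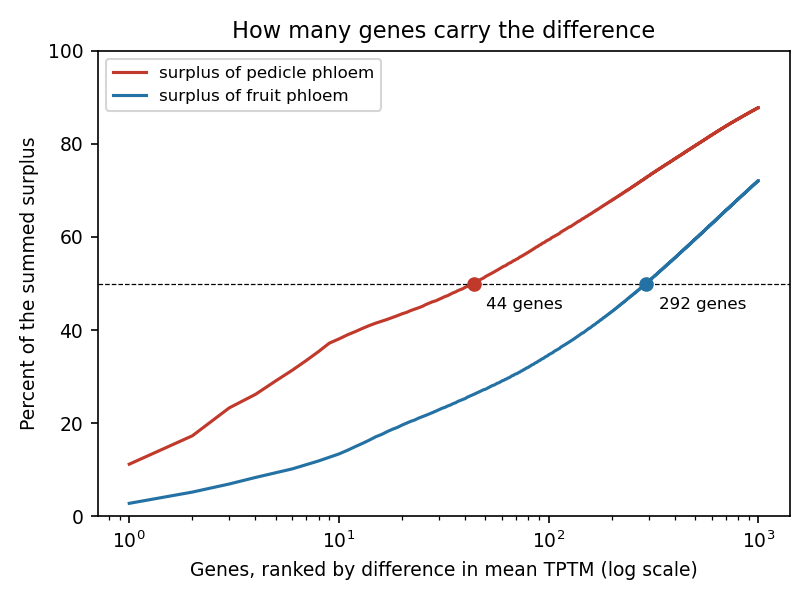
Cumulative percent of the summed difference in mean TPTM (vertical) against the number of genes, ranked from the largest difference (horizontal, log scale), for genes higher in pedicle and genes higher in fruit. The pedicle curve reaches 50% at 44 genes and the fruit curve at 292.

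The 2 called genes in each direction with the largest difference in mean score are described one by one. Csa7G056500 changed the most. Pedicle scored 312608 and 293673 TPTM, stalk 15815 and 13464 TPTM, and fruit 13458 and 8025 TPTM. Both pedicle values were far above the other 4, and the lower stalk value lay just above the higher fruit value. This one gene took 3.03% ± 0.134 of pedicle expression and 0.107% ± 0.0384 of fruit expression (SD, n = 2 each), and it ranked second in pedicle and 95th in fruit by mean score. Its log2 difference was 4.86 ± 0.35 (SE; limma adjusted p = 0.000138), about 29.1-fold. The call held in all 14 alternative fits, with adjusted p of at most 0.0409.

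Csa7G067350 was the next largest gain of pedicle. Its scores were 195445 and 173174 TPTM in pedicle tissue, against 37036 and 25366 for stalk and 35428 and 14658 for fruit. The pedicle libraries stood clear of all others, while stalk and fruit overlapped and the fruit libraries differed widely from each other. Its log2 difference from fruit to pedicle was 3.01 ± 0.43 (SE; limma adjusted p = 0.00302). It no longer passed without pedicle replicate 1 (adjusted p = 0.0849) or without pedicle replicate 2 (0.0713).

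On the other side, Csa3G822300 was the called gene lower in pedicle by the most TPTM. Pedicle stood at 57953 and 52952 TPTM, stalk at 131378 and 124249 and fruit at 138546 and 117585. Stalk lay inside the range of fruit, and both stood above pedicle. The gene was abundant everywhere, ranking second in stalk and in fruit and 11th in pedicle, and its relative change was small, at -1.20 ± 0.33 on the log2 scale (SE; adjusted p = 0.0388, limma). This call was lost in 7 of 14 alternatives, among them TMM factors (-1.03, adjusted p = 0.117), the replicate block (0.112) and each of the 4 fits that left out a library (0.053 to 0.172).

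Csa6G518000 was the next by TPTM among the called genes, after leaving out a gene with a larger difference that was not called, and its relative change was larger. Its scores were 10959 and 6555 TPTM for pedicle, 27559 and 35556 for stalk and 60710 and 47532 for fruit. The 3 organs did not overlap, and stalk lay between the ends. Its log2 difference was -2.66 ± 0.32 (SE; limma adjusted p = 0.0015), which missed the threshold only without pedicle replicate 2 (-2.29, adjusted p = 0.0548).

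**Figure D3:**
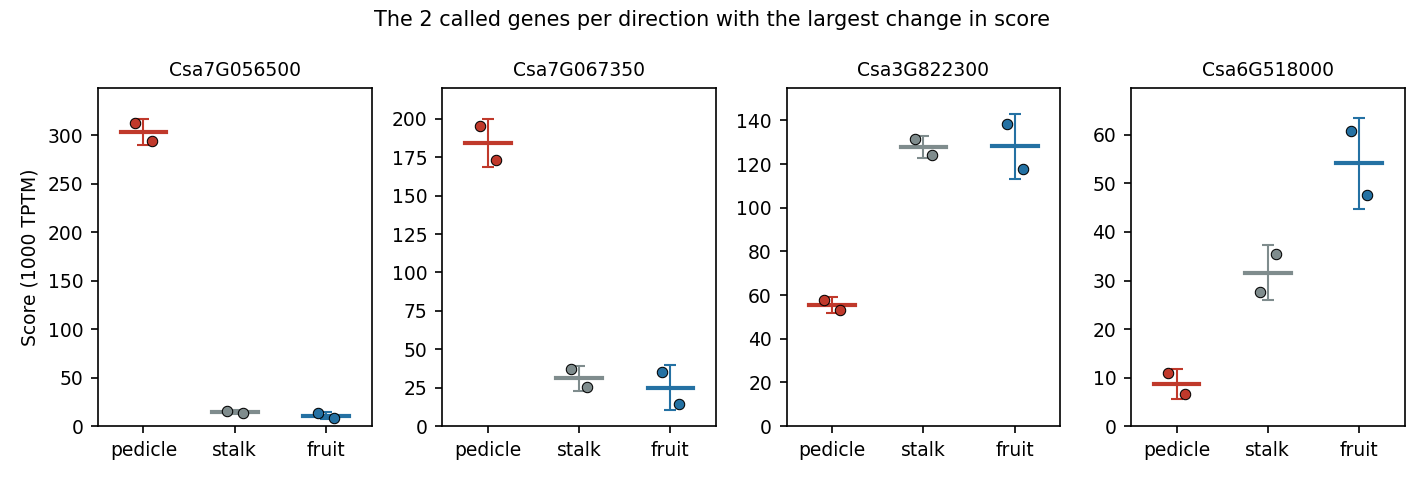
Score in units of 1000 TPTM (vertical, from 0) of the 2 called genes in each direction with the largest difference in mean score, by organ. Points are the 2 libraries of an organ, the wide line their mean and the error bar 1 SD; the first 2 genes are high in pedicle alone, Csa3G822300 is low in pedicle alone, and Csa6G518000 rises from pedicle through stalk to fruit.

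As a group, the 785 genes called higher in pedicle made up 20.9% and 21.0% of the pedicle libraries and 4.51% and 4.06% of the fruit libraries. In stalk they made up 7.69% and 7.68%. The 1509 genes called higher in fruit made up 6.53% and 6.08% of pedicle, 15.1% of either stalk library and 19.7% and 18.7% of fruit. The stalk libraries thus lay between the ends for both groups and nearer to fruit. Choosing genes by the distance between the ends by itself tends to place any other organ between them, so the shares are a description only.

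Gene by gene, stalk also lay nearer to fruit for most called genes. On a scale where the fruit mean is 0 and the pedicle mean is 1 (log2 scores), the median stalk position was 0.40 over the genes called higher in pedicle, with quartiles of 0.16 and 0.63. Over the genes called higher in fruit it was 0.31, with quartiles of 0.09 and 0.53. The 2 stalk libraries gave 0.43 and 0.38 for the first group and 0.30 and 0.31 for the second. Stalk was on the fruit side of the midpoint in 490 of 785 genes (62.4%) and in 1086 of 1509 (72.0%). Over all tested genes whose pedicle and fruit libraries did not overlap, the medians were 0.34 for the 3285 genes with pedicle above (21.8% of those tested) and 0.39 for the 5508 with fruit above (36.5%). The order of the 2 directions was thus the opposite there. Called genes were chosen for the distance between the ends, which by itself places more values of any other organ between them. The pedicle libraries also lay further from each other than the fruit libraries (root mean square SD 0.569 against 0.464 log2 units). Whether this moved the stalk positions toward fruit was not tested.

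The stalk position was also taken by the size of the difference, as a description only, since the same pedicle and fruit values set both the size and the scale. Among genes called higher in pedicle the median position was 0.42 for the 426 that differed by less than 4-fold, 0.37 for the 199 between 4-fold and 8-fold and 0.35 for the 160 beyond 8-fold. Among genes called higher in fruit it was 0.35, 0.29 and 0.27 for 767, 462 and 280 genes. Stalk reached or passed the fruit level in 109 (13.9%) of the genes called higher in pedicle and in 258 (17.1%) of those called higher in fruit. Over all tested genes without overlap these shares were larger, at 27.5% and 21.3%. Stalk passed the pedicle level in 39 (4.97%) and 43 (2.85%) of the called genes, against 13.3% and 14.4% of all tested genes without overlap.

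**Figure D4:**
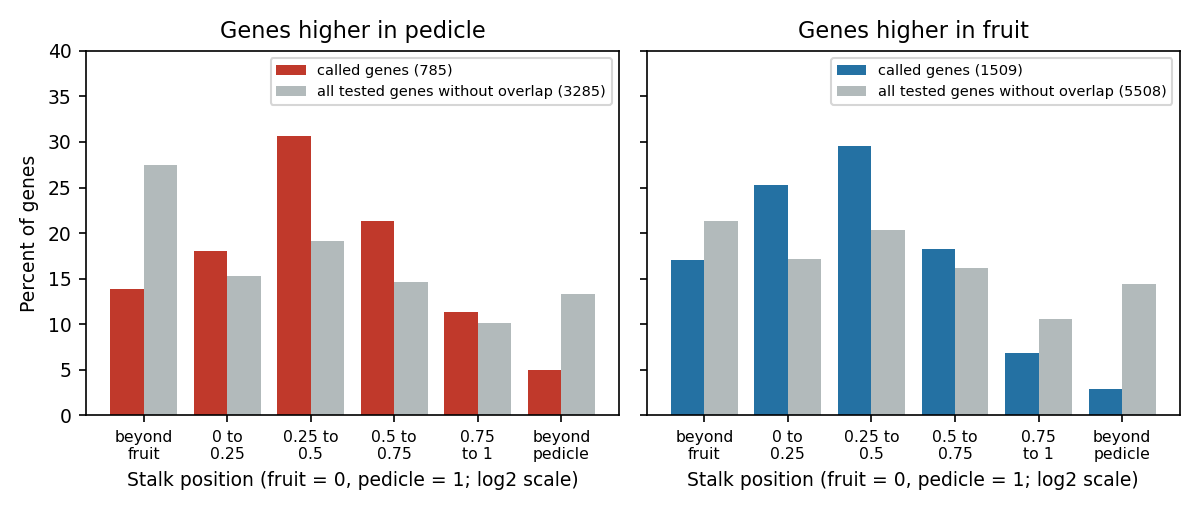
Percent of genes (vertical) by the position of the stalk mean on the log2 scale from fruit (0) to pedicle (1), for genes higher in pedicle (left) and higher in fruit (right). Coloured bars are called genes and grey bars all tested genes whose pedicle and fruit libraries did not overlap. In both panels the commonest class is 0.25 to 0.5 for called genes and beyond fruit for the grey bars.

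A test of the stalk mean against the midpoint of pedicle and fruit, over all 6 libraries, called 592 genes, 3.92% of those tested (limma, adjusted p under 0.05; 2826 at an unadjusted p under 0.05). Of these, 305 were genes that also differed between pedicle and fruit, and in 263 of them stalk lay on the fruit side of the midpoint and in 42 on the pedicle side. These sides include values past the end itself: the stalk mean was beyond the fruit mean in 196 of the 263 and beyond the pedicle mean in 28 of the 42, so it lay between the ends in only 67 and 14. Among genes higher in pedicle the split was 66 on the fruit side and 31 on the pedicle side, and among genes higher in fruit it was 197 and 11. Few such genes passed with a single stalk library: 21 and 3 without stalk replicate 1, and 12 and 2 without stalk replicate 2. The split was 94 and 7 without pedicle replicate 1, 172 and 15 without pedicle replicate 2, 90 and 35 when fruit replicate 1 was omitted, and 79 and 19 when fruit replicate 2 was. Both stalk libraries were above all 4 pedicle and fruit libraries in 115 of the 305 genes and below them all in 34. The same held for each of the other 287 genes, with stalk above in 188 and below in 99.

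Csa7G056500 was among the genes with stalk between the ends on the fruit side, its stalk mean being -1.94 ± 0.26 (SE) from the midpoint on the log2 scale (limma adjusted p = 0.00343; 0.0884 without stalk replicate 1 and 0.144 without stalk replicate 2). For Csa7G067350 the distance was -1.08 ± 0.34 (adjusted p = 0.115), and it passed only without fruit replicate 2 (-1.40, 0.0296). For Csa3G822300 it was 0.60 ± 0.24 (0.212), and it passed only with quantile normalisation (0.98, 0.0436). Csa6G518000 lay 0.55 ± 0.26 above the midpoint (0.287) and passed in no alternative.

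A small group of genes was on at one end and off at the other, where off means a low score and not absence. In 20 genes both pedicle libraries reached 100 TPTM and both fruit libraries were under 10, and in 47 genes the reverse held. The on level had a median of 170 TPTM for the 20 genes and 215 for the 47, and the off level medians of 2.25 and 1.5. Of these, 4 and 6 genes were listed at 0 in both libraries of the off organ. All 67 were called, as such a choice nearly requires. With TMM factors the counts were 23 genes on in pedicle and 37 on in fruit, so how unequal they were depended on the scaling. Over all genes of the table, zeros were also more frequent in the pedicle libraries (510 and 306 genes) than in the fruit libraries (159 and 161). Zeros depend on depth as well, which was not resolved for replicate 1 of either organ. Without fruit replicate 1 the counts were 33 and 65, without fruit replicate 2 they were 31 and 71, without pedicle replicate 2 they were 28 and 90, and without pedicle replicate 1 they were 28 and 58, since fewer libraries then have to pass.

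The stalk levels of these 2 groups are given as a description, without a test. For the 20 genes on in pedicle, its median was 16.25 TPTM, and stalk was off in both libraries for 3 genes, on in both for 1 and in between or mixed for 16. For the 47 genes on in fruit, the stalk median was 106.5 TPTM. Both stalk libraries were on for 22 of these genes, none was off in both, and 25 were in between or mixed. The lowest stalk mean among the 47 was 23 TPTM. The stalk libraries gave medians of 17 and 12.5 TPTM for the first group and 86 and 124 for the second. On the log2 scale from fruit to pedicle the median positions were 0.28 and 0.22, on the fruit side for both groups.

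**Figure D5:**
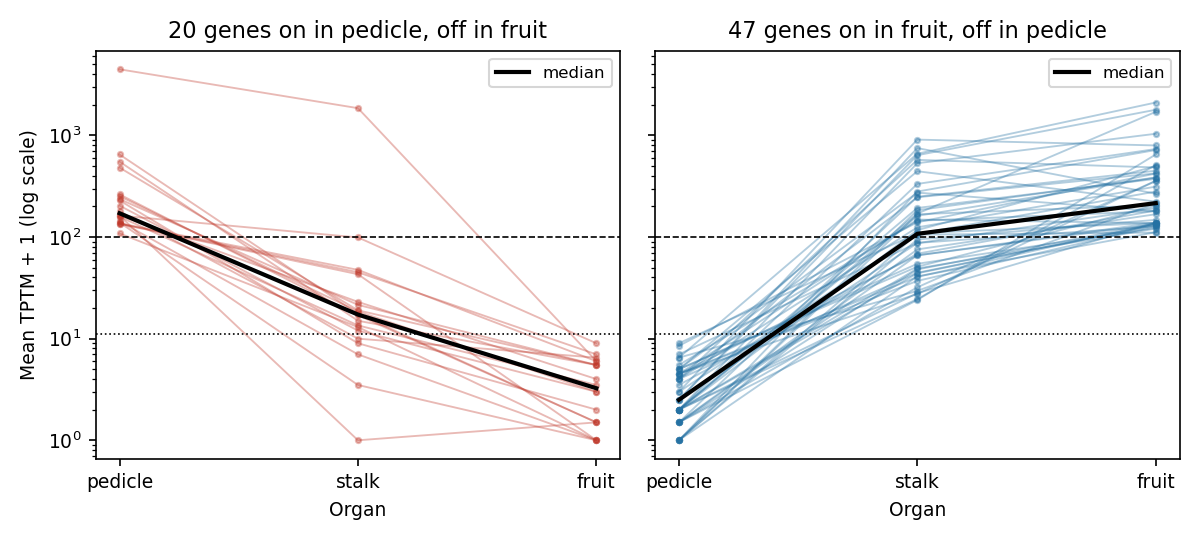
Mean score plus 1 TPTM (vertical, log scale) in pedicle, stalk and fruit phloem of the 20 genes on in pedicle and off in fruit (left) and the 47 with the reverse pattern (right). Thin lines are genes, the thick line their median, and the dashed and dotted lines mark 100 and 10 TPTM; the median stalk score is 16.25 on the left and 106.5 on the right.

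Genes called higher in pedicle were often neighbours by identifier. In the naming scheme of the 9930 annotation the digit after Csa is the chromosome and the number after G rises along it. By chromosome, the share of tested genes called higher in pedicle ran from 4.74% on chromosome 3 to 6.03% on chromosome 5, and the share called higher in fruit from 9.23% on chromosome 3 to 10.7% on chromosomes 2 and 7. Of 784 placed genes called higher in pedicle, 203 (25.9%) had a next tested neighbour called the same way, against 10.0% of all placed genes. Of 1503 called higher in fruit, 339 (22.6%) had one, against 18.8%. Runs of at least 3 such neighbours numbered 15 toward pedicle and 25 toward fruit, and held 49 and 77 genes. More genes were called toward fruit, which by itself gives more runs. The number of runs in randomly placed calls was not worked out, so these counts do not compare the clustering of the directions.

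Csa7G067350 lay in the middle of such a run of 3 genes on chromosome 7. Summed over the run, pedicle scored 375645 and 336972 TPTM, stalk 57204 and 37969 and fruit 60694 and 25387. Its members' log2 differences ran from 2.38 to 3.38. The longest run, of 5 genes on chromosome 6, was higher in pedicle, where it summed to 5310 and 9623 TPTM against 577 and 256 for stalk and 759 and 248 for fruit. In both runs stalk and fruit overlapped and pedicle stood above. Whether neighbours of like sequence shared reads in the authors' counting was not tested. The other 3 named genes had no neighbour called in the same direction.

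The spread between replicates differed with the organ and with the level of a gene. The root mean square SD between the 2 libraries was 0.569 log2 units in pedicle and 0.464 in fruit. Among genes with a mean under 50 TPTM it was 0.796 and 0.590. Between 500 and 5000 TPTM the organs were alike, at 0.342 and 0.350. Among the 269 genes of 5000 TPTM or more pedicle was the tighter organ, at 0.288 against 0.607. In that most abundant class 32 genes (11.9%) were called higher in pedicle and 33 (12.3%) higher in fruit, whereas under 50 TPTM the numbers were 94 (2.70%) and 279 (8.01%). Of the 1195 genes whose means differed at least 4-fold, 94 were not called. In 69 of these (73.4%) the pedicle libraries, and in 52 (55.3%) the fruit libraries, were more than 2-fold apart, and 56 had a mean under 50 TPTM. Over all tested genes the shares more than 2-fold apart were 17.4% in pedicle and 10.1% in fruit. Missing the call at such a difference nearly requires a wide spread, so these counts are a description only. The limma fit gave both organs of a gene the same variance.

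A gene that was not called is not thereby shown to be equal at both ends. The 95% confidence interval of the difference lay wholly within 2-fold either way for 2222 genes, 14.7% of those tested. These were 1141 of the 3207 genes between 500 and 5000 TPTM (35.6%), 106 of the 269 above that (39.4%) and 975 of the 8129 between 50 and 500 TPTM (12%). None of the 3485 genes under 50 TPTM was bounded so closely, and their median interval reached 1.33 log2 units to either side.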

How the data were processed

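Phloem of 3 organs was measured in 2 libraries each; the series' design text calls them biological replicates. The authors deposited 1 table of rounded scores (TPTM) per gene and library, normalised to just under 10000000 per column; the submitters' processing notes name TopHat and HTSeq, with versions, build and annotation being not given in the sources used here. Because these are not read counts, log2(score + 5) was analysed in R 4.3.3 with limma 3.58.1 (moderated variances, intensity trend, 2 residual and 6.82 prior degrees of freedom) on the pedicle and fruit libraries, with p-values adjusted over 15090 genes; 630 genes were left out by the filter. Fold changes on this scale understate those of low genes. The stalk midpoint contrast used all 6 libraries (3 residual, 7.77 prior degrees of freedom). Single values have no useful permutation test, since 2 against 2 cannot go below an exact p of 0.333. The p-values measure only the spread between these libraries. Reads per TPTM were estimated from scores of 15 to 200 where the log likelihood exceeded that of other depths by at least 3. The code was tested on simulated data.

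None of the identifiers (0 of 15720) occurs in the RefSeq table of 23999 cucumber genes, so lists by product name were not applied. Only 2 genes per direction are named: the called genes with the largest difference in mean score. The comparison and these choices were made with earlier results of these data known. The alternatives were other samples in the fit, pseudocounts, filters, scalings, priors, a replicate block and leaving out each library.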

Additional observations from a re-analysis of the deposited data

How the results depend on the processing

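Under the alternatives run, no called gene turned to a call in the other direction. With all 6 libraries in the fit, 3493 genes were called, 2326 of them higher in fruit. Without the intensity trend the total was 1511, with 495 higher in pedicle, and 98 and 8 genes had stalk on the fruit and the pedicle side of the midpoint. Quantile normalisation gave 1236 genes higher in pedicle. The cause of these changes was not tested. Leaving out each library in turn gave 279 to 738 genes in all, 71 to 370 higher in pedicle, 208 to 383 higher in fruit, 12 to 172 with stalk on the fruit side and 2 to 35 on the pedicle side; such fits have fewer libraries and assume that the lone library of an organ varies like the others. Median stalk positions ran from 0.37 to 0.47 for genes higher in pedicle and from 0.23 to 0.35 for genes higher in fruit in these fits. They were 0.37 with a pseudocount of 20 for the former, and 0.29, 0.33 and 0.26 with pseudocounts of 1 and 20 and TMM factors for the latter. Genes on at one end and off at the other numbered 39 (pedicle) and 100 (fruit) with 50 TPTM as the on level, 4 and 6 with 0 as the off level, and 28 to 33 and 58 to 90 with a library left out (added after seeing the data, as were the fits of the 50% sums and of each named gene's stalk distance). With a replicate block 2627 genes were called, 874 higher in pedicle and 1753 in fruit. Replicate differences of pedicle and fruit correlated at -0.0496 across genes, which gives no sign of pairing by number. No difference of a gene under 50 TPTM was bounded within 2-fold in these libraries.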
